A study of Mus musculus with 11 samples.

Results

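The immediate early genes examined here are 10 genes that cells switch on within a short time of a stimulus, for the most part before new protein is made: Fos, Fosb, Fosl1, Jun, Junb, Atf3, Egr1, Egr2, Nr4a1 and Ier3. They were found by gene name among 27567 genes on the arrays, with older names and accessions also accepted, and were read by 11 of 41121 probes (Junb by 2, the others by 1 each). The cells were cardiac progenitors (mesoangioblasts, vessel-associated cells that can enter muscle lineages) grown from the atrium, ventricle or aorta of mice, and C2C12, a mouse myoblast line used as the control for muscle differentiation. Progenitors of wild-type mice are labelled WT (3 arrays) and those of mice null for beta-sarcoglycan are labelled KO (5 arrays). There were 3 arrays of C2C12. Per the labels, WT progenitors give beating cardiomyocytes and KO progenitors give skeletal muscle fibres. Age of the mice, passage, and whether cells were growing or differentiating at harvest are not given in the labels, nor is any acute stimulus.

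In textbook terms, growth factor and stress signals reach these genes through MAP kinases and calcium, which act on the serum response factor (bound at the CArG box) and on CREB (bound at the cAMP-response element). The proteins made are mostly transcription factors. Fos and Jun family proteins pair through leucine zippers to form AP-1, Egr proteins are zinc-finger factors, Nr4a1 is an orphan nuclear receptor, and Ier3 is a small protein tied to cell survival. The transcripts are short-lived, and phosphatases and RNA-decay factors made in the same wave switch the response off.

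Promoter sequences of the members are shown first, because the letters of these known elements are part of how the group is defined in textbooks. RefSeq promoter windows (build GRCm38.p6, 250 bases before to 50 after each listed start) were matched for 8 members, with 5 windows for Egr2 and 1 for each of the other matched members. Egr1 and Fosl1 had no window and were not searched. The core of the cAMP-response element, TGACG on either strand, was present in windows of 6 of these 8 members (Fos, Fosb, Junb, Atf3, Egr2 and Nr4a1) and, over the first window of each gene, in 5 of 8. It was in 21.0% of 27025 promoter windows of the same length. The CArG box was in the first window of 0 of 8 members; it was found in 1 member, Egr2, in windows after the first of its 5, and in 1.57% of all windows. With 5 windows searched, Egr2 had more chances of a match than a gene with 1. The full palindrome TGACGTCA and the AP-1 letters TGACTCA were in none of the members' windows (1.88% and 5.17% of all windows). The Egr letters GCGGGGGCG were in the windows of Fosb and Nr4a1 (2.92% of all windows). These matches describe letters in the windows searched and do not show binding. Elements more than 250 bases before a listed start were not searched, so a missing match does not show that a gene lacks the element. In the stretches below, capitals mark TGACG (printed as CGTCA where it lies on the other strand) or the CArG box.
Egr2, chr10:67537738-67537838, plus strand: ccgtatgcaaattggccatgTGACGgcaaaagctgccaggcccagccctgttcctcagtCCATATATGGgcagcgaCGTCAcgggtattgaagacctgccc
Egr2, chr10:67537474-67537523, plus strand: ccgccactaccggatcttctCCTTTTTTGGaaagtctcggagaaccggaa
Fos, chr12:85473741-85473848, plus strand: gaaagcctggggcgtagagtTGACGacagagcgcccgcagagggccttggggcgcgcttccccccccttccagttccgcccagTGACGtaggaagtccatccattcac
Nr4a1, chr15:101266596-101266830, plus strand: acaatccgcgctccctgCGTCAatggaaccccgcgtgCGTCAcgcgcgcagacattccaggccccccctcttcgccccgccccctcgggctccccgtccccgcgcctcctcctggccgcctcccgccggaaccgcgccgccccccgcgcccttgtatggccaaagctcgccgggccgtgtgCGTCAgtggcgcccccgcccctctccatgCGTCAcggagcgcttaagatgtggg
Fosb, chr7:19310081-19310125, minus strand: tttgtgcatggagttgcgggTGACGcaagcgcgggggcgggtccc
Junb, chr8:84978830-84978874, minus strand: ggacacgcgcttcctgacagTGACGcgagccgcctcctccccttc
Atf3, chr1:191183334-191183360, minus strand: ggaagctattaatagcattaCGTCAgc
The TGACG of Egr2 likewise lay outside its first window. Nr4a1 held 4 copies of TGACG in its window, Fos 2, and the Egr2 stretch 2 copies flanking a CArG box. Jun and Ier3 held neither letter string.

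The 11 arrays were spread over 3 slides, scanned on 2 days, and no slide held both genotype labels. Slide 1 carried the ventricle and aorta labelled KO beside C2C12, slide 2 all WT-labelled arrays and C2C12, and slide 3 all KO-labelled regions and C2C12. KO ventricle, KO aorta and C2C12 on slides 1 and 3 differed by less than the noise between repeated spots (0.588 to 0.702 of it, against 2.55 or more in the other 13 of 16 pairs within a group), and each such pair was counted as 1 sample. This left 3 KO-labelled, 3 WT-labelled and 2 C2C12 samples, 1 per heart region in each genotype, so the p-values measure a spread between regions, which may in part be technical. No label tells which arrays stem from different mice or cultures. Sgcb, which encodes beta-sarcoglycan, went against the labels: its brightest probe had a mean of 2.66 in KO-labelled and 2.03 in WT-labelled samples (limma difference 0.63, SE 0.21, adjusted p = 0.0727), and no label gives the deleted stretch of the gene. Samples are therefore called KO-labelled and WT-labelled, and every direction rests on those labels. Of 10 skeletal muscle markers, all 10 were above background on at least 1 C2C12 array and at least 1 KO-labelled array. On at least 1 WT-labelled array 6 were, among them Des and Chrna1 on only 1 of the 3. Of 8 endothelial markers, 5 (Pecam1, Cdh5, Kdr, Tie1 and Emcn) were not above background on any array. The same held for 4 of 8 blood and macrophage markers (Ptprc, C1qa, Adgre1 and Itgam). Others on these lists were read: Egfl7 and C1qb were above background on all arrays. Erg and Lyz2 were above background on all WT-labelled arrays and on no KO-labelled or C2C12 array.

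Values are log2 processed signals from which the array's own 75th percentile was subtracted, so a value of 0 lies at that percentile; levels are compared between samples and never between genes, since each probe has its own response. All 11 member probes were well above background on all 11 arrays, with processed signals from 74.2 to 66249. The 3 joined pairs agreed on the member probes to a median gap of 0.03 and a largest gap of 0.24, in Fosb. Over the 8 samples the median range of the 10 members was 1.82, beside 1.11 over the 15805 genes tested in all groups. Egr2 spanned 4.22 (18.7-fold), Nr4a1 4.19 (18.2-fold) and Atf3 3.70 (13.0-fold), whereas Fosb spanned 0.65 and Egr1 0.69. The RNA was bulk RNA, in which fewer cells of a type and less RNA per cell cannot be told apart.

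**Figure D1:**
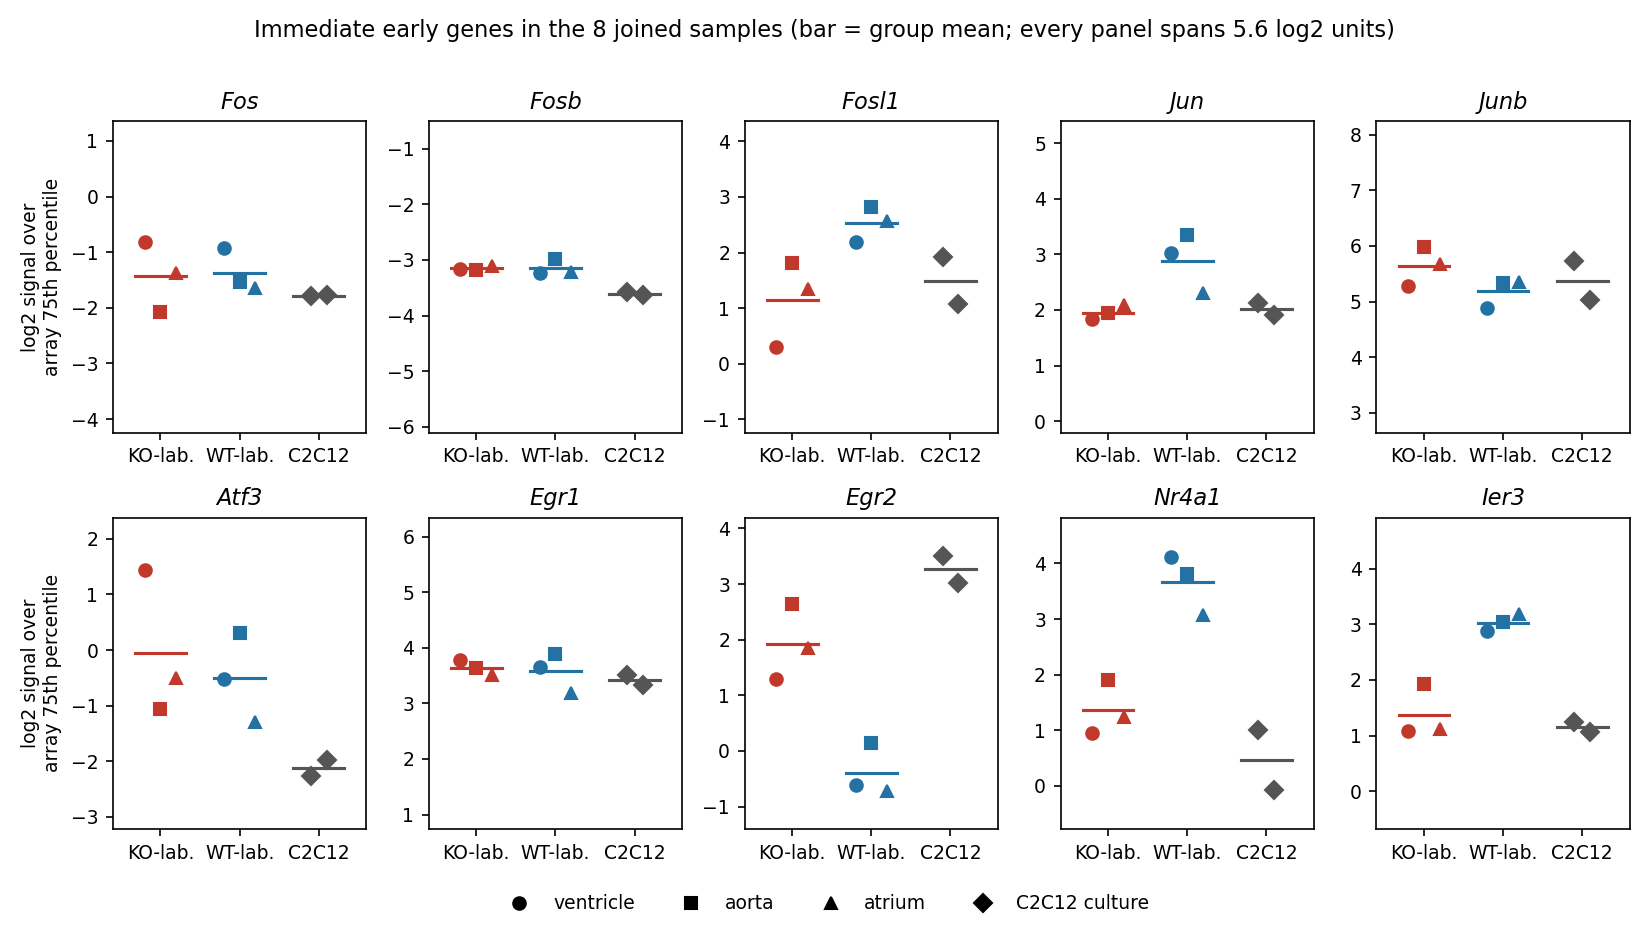
Log2 signal over the array's 75th percentile (vertical axes, 1 panel per gene, all panels spanning the same number of log2 units) of the 10 immediate early genes in 3 KO-labelled, 3 WT-labelled and 2 C2C12 samples. Points are samples, shapes are heart regions and bars are group means; in Egr2, Nr4a1, Ier3, Fosl1 and Jun the WT-labelled samples overlap with no other sample, and Fosb and Egr1 stay within 0.69 over the 8 samples.

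Between KO-labelled and WT-labelled samples, Egr2 was 5.02-fold higher and Nr4a1 4.95-fold, Ier3 3.16-fold and Fosl1 2.61-fold lower, and the other 6 members did not pass the test. Thus 4 of 10 members passed limma's adjusted p of 0.05 (1 higher and 3 lower), where 29.8% of 15002 genes tested did (13.7% higher and 16.0% lower). The median difference of the members was -0.03, beside -0.06 over all genes tested. The groups did not overlap in 5 of 10 members (Jun is the fifth), beside 49.3% of all genes. The slides and the genotype labels cannot be told apart by comparing these groups directly. A fit with the slide as a block, chosen after the data were seen, sets each label against C2C12 on its own slides; its SEs are larger, and what it takes out is the gap between C2C12 sample 1 and sample 2. In it limma called none of the 10 members, beside 5.68% of all genes, and 3 (Fosl1, Nr4a1 and Ier3, all lower) had an unadjusted p under 0.05, beside 19.7% of all genes. This slide-blocked value is given beside each member's difference between the labels.

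Egr2, a zinc-finger factor best known from hindbrain patterning and nerve myelination, was the member that rose. Its probe (mm8 chromosome 10, 66937367 to 66937426) read 1.30 in KO-labelled ventricle, 2.64 in aorta and 1.85 in atrium. The WT-labelled samples read -0.61 in ventricle, 0.14 in aorta and -0.72 in atrium. The C2C12 samples, on slides 1 and 3 and on slide 2, read 3.51 and 3.03. The order was thus C2C12, KO-labelled, WT-labelled, with no overlap between neighbouring groups. The KO-labelled mean of 1.93 ± 0.67 (SD, n = 3) was 2.33 above the WT-labelled mean of -0.40 ± 0.47 (SE 0.40, limma adjusted p = 0.00801; slide-blocked 1.85, adjusted p = 0.282). Against C2C12 the WT-labelled mean was 12.7-fold lower (-3.66, SE 0.43, adjusted p = 0.00105), and this call held with the slide as a block (-3.42, adjusted p = 0.0135). The KO-labelled mean lay 1.33 below C2C12 without passing the test (adjusted p = 0.264; slide-blocked -1.57, adjusted p = 0.519).

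Nr4a1, a nuclear receptor with no known required ligand and a frequent marker of recent calcium or growth factor signalling, ran the other way. Its probe (chromosome 15, 101102674 to 101102733) read 0.95 in KO-labelled ventricle, 1.90 in aorta and 1.23 in atrium. WT-labelled ventricle read 4.12, aorta 3.81 and atrium 3.08. The C2C12 samples read 1.01 on slides 1 and 3 and -0.07 on slide 2. Every WT-labelled sample was above every other sample, while KO-labelled and C2C12 samples overlapped. The KO-labelled mean was lower by 2.31 (-2.31, SE 0.36, limma adjusted p = 0.00553; slide-blocked -3.39, adjusted p = 0.0542). WT-labelled samples were 9.17-fold above C2C12 (3.20, SE 0.45, adjusted p = 0.00245; slide-blocked 3.74, adjusted p = 0.00676).

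Ier3, an early response gene that acts on survival and on ERK signalling, showed the same order with less spread. Its probe (chromosome 17, 35430636 to 35430695) read 1.08 in KO-labelled ventricle, 1.92 in aorta and 1.12 in atrium. The WT-labelled values lay between 2.88 in ventricle and 3.18 in atrium, with 3.04 in aorta. The C2C12 samples read 1.25 and 1.06. KO-labelled samples overlapped with C2C12, and WT-labelled samples overlapped with neither. The KO-labelled mean differed from the WT-labelled mean by -1.66 (SE 0.26, limma adjusted p = 0.00579; slide-blocked -1.85, adjusted p = 0.12). WT-labelled samples were 3.68-fold above C2C12 (1.88, SE 0.27, adjusted p = 0.00271; slide-blocked 1.98, adjusted p = 0.0202).

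**Figure D2:**
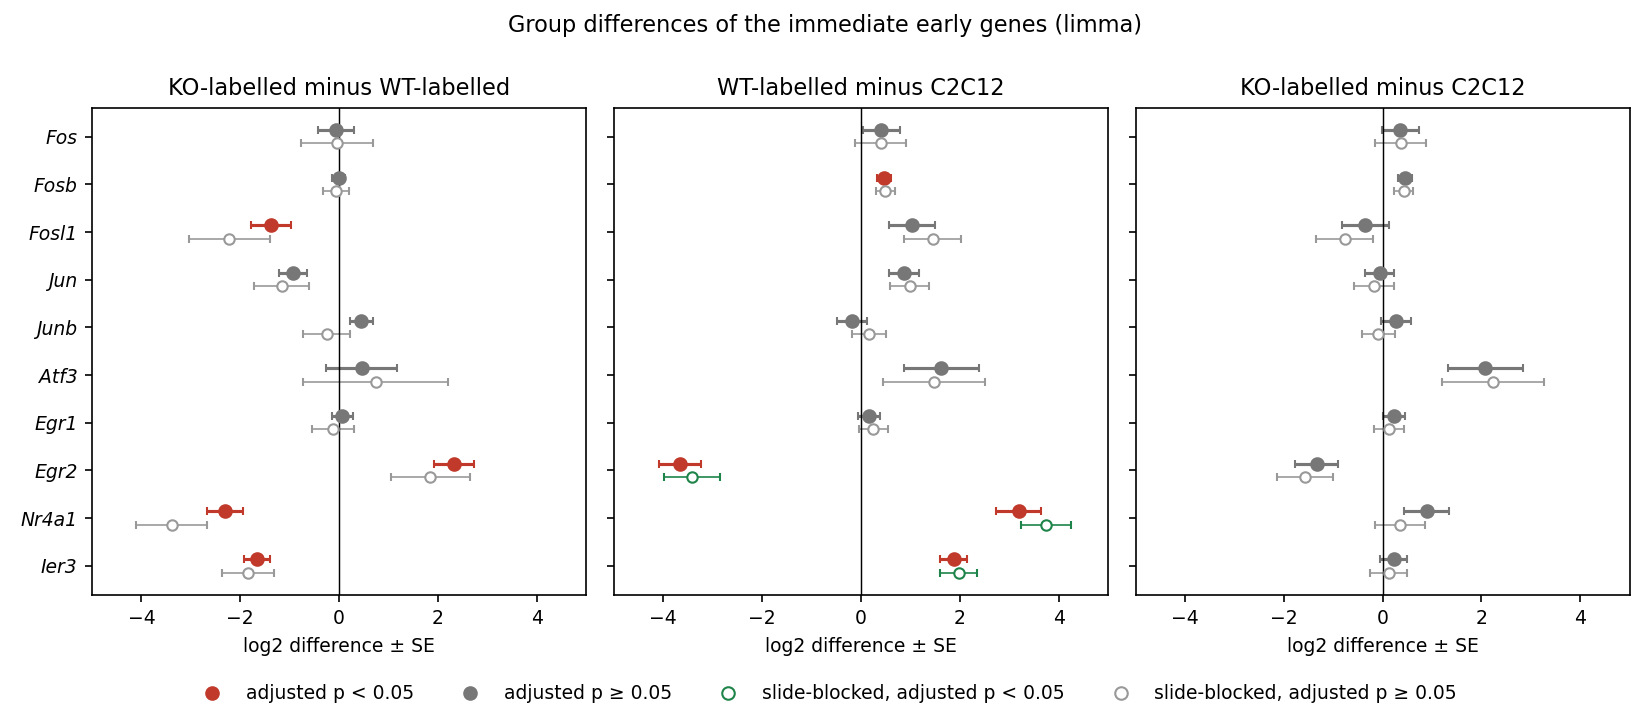
Log2 differences (horizontal axes) with limma's SE for the 10 members in 3 comparisons, filled circles for the fit without the slide and open circles for the slide-blocked fit. Egr2, Nr4a1 and Ier3 pass the test in WT-labelled minus C2C12 in both fits, 4 members pass in KO-labelled minus WT-labelled without the slide and none with it, and none passes in KO-labelled minus C2C12.

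Among the Fos family, which cannot pair with itself and needs a Jun partner for AP-1, Fosl1 (Fra-1) moved and Fos and Fosb did not pass the test. Fosl1 (chromosome 19, 5455496 to 5455555) read 0.30 in KO-labelled ventricle, 1.81 in aorta and 1.34 in atrium, and 2.20, 2.82 and 2.57 in the same WT-labelled regions. The C2C12 samples read 1.91 and 1.08. All 3 WT-labelled samples were above all others, with a difference of -1.38 between the labels (SE 0.41, limma adjusted p = 0.0485; slide-blocked -2.22, adjusted p = 0.207). That call sat at the threshold: it was lost in 10 of 17 alternative fits, among them those without KO-labelled ventricle (adjusted p = 0.0617), KO-labelled atrium (0.106), WT-labelled atrium (0.0787), WT-labelled ventricle (0.0806) or WT-labelled aorta (0.14).

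Fos, the founding AP-1 subunit, was read by a probe with 10 spots per array (chromosome 12, 86366053 to 86366112). It read -0.82 in KO-labelled ventricle, -2.08 in aorta and -1.38 in atrium. WT-labelled ventricle read -0.92, aorta -1.53 and atrium -1.65, and C2C12 -1.79 and -1.77. The ventricle was the highest region under both labels, and the group means of -1.43 ± 0.63 and -1.37 ± 0.39 (SD, n = 3 each) differed by -0.06 (SE 0.37, limma adjusted p = 0.924; slide-blocked -0.04, adjusted p = 0.986). Fosb (chromosome 7, 18461650 to 18461709) lay between -3.23 and -2.98 in all 6 heart samples and read -3.58 and -3.64 in C2C12. Its KO-labelled and WT-labelled means differed by -0.01 (adjusted p = 0.974; slide-blocked -0.06, adjusted p = 0.934), and both lay 0.46 above C2C12, with adjusted p = 0.231 and 0.0449. The WT-labelled call for Fosb was lost in 13 of 17 alternative fits (slide-blocked 0.49, adjusted p = 0.153).

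Of the Jun family, which can pair within itself or with Fos proteins, neither member passed the test between the labels. Jun (chromosome 4, 94541191 to 94541250) read 1.84, 1.94 and 2.08 in KO-labelled ventricle, aorta and atrium. It read 3.02, 3.34 and 2.30 in the same WT-labelled regions, and 2.13 and 1.90 in C2C12. The KO-labelled samples lay within 0.25 of each other, all below the WT-labelled ones, and the difference of -0.93 just missed the threshold (SE 0.28, limma adjusted p = 0.0518; slide-blocked -1.17, adjusted p = 0.338). Jun passed in 4 of 17 alternative fits: without WT-labelled atrium (-1.23, adjusted p = 0.00394), with every array as its own sample (0.00813), with C2C12 in the fit (0.0336) and with a stricter filter (0.0472). With heart region as a block it did not (adjusted p = 0.0877). Junb, an AP-1 subunit that often opposes Jun, was read by overlapping probes (chromosome 8, 87867087 to 87867146 and 87867049 to 87867108), whose differences between the labels were 0.45 and 0.47. The first read 5.28, 5.99 and 5.67 in KO-labelled ventricle, aorta and atrium. It read 4.89, 5.34 and 5.35 in the same WT-labelled regions and 5.73 and 5.03 in C2C12, so the groups overlapped (adjusted p = 0.206). With the slide as a block the sign turned (-0.25, adjusted p = 0.842), since the C2C12 samples differed by 0.71.

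Atf3, a stress-induced relative of these factors that represses many promoters, had the widest spread within the KO-labelled group. Its probe (chromosome 1, 192871283 to 192871342) read 1.43 in KO-labelled ventricle, -1.07 in aorta and -0.51 in atrium. WT-labelled ventricle read -0.52, aorta 0.31 and atrium -1.29, and C2C12 -2.27 and -1.98. KO-labelled ventricle stood apart from its group, and the labels differed by 0.45 with an SE of 0.73 (limma adjusted p = 0.682; slide-blocked 0.74, adjusted p = 0.851). Without KO-labelled ventricle the difference was -0.29. All 6 heart samples were above both C2C12 samples, by means of 2.08 (KO-labelled, SE 0.76, adjusted p = 0.32; slide-blocked 2.22, adjusted p = 0.676) and 1.63 (WT-labelled, adjusted p = 0.16; slide-blocked 1.48, adjusted p = 0.405), neither of which passed. Egr1 (chromosome 18), the widely used zinc-finger marker of acute stimulation, read 3.78, 3.64 and 3.51 in KO-labelled ventricle, aorta and atrium. It read 3.65, 3.88 and 3.19 in the same WT-labelled regions and 3.52 and 3.32 in C2C12. These groups overlapped throughout, with a difference of 0.07 between the labels (SE 0.21, adjusted p = 0.84) that turned sign with the slide as a block (-0.13, adjusted p = 0.913).

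Both labels were also set against C2C12, which lay on every slide. C2C12 was always at position 4 of the slide, which no heart sample held. Cell type and position therefore cannot be told apart in these comparisons. Of 10 members, 4 passed limma's test in WT-labelled against C2C12 samples (Nr4a1, Ier3 and Fosb higher, Egr2 lower), beside 27.0% of 15805 genes tested (13.7% higher and 13.3% lower); with the slide as a block 3 passed, beside 14.5%. The groups did not overlap in 8 of 10 members, beside 54.1% of genes. Between KO-labelled and C2C12 samples none of the 10 passed (0 higher and 0 lower), beside 1.26% of genes (0.664% higher and 0.595% lower). At an unadjusted p under 0.05 there were 3 (Fosb 0.46, Egr2 -1.33 and Atf3 2.08), beside 12.5% of genes (1976). With every array as its own sample 2 members passed (Fosb and Egr2), beside 10.3% of genes. The same 3 did not overlap between the groups, beside 37.9% of genes. The comparisons share the C2C12 samples, so they are not independent of each other. Fosb lay 0.46 above C2C12 under both labels, so its call under the WT label alone is not a difference between the labels.

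Between heart regions, limma's test over the 6 heart samples with genotype label in the fit called 0 of 15002 genes (0.0%), and 719 (4.79%) had an unadjusted p under 0.05. The members' limma adjusted p ran from 0.807 to 0.946. Egr2 and Fosl1 were the members with an unadjusted limma p under 0.05, at 0.0253 and 0.0426. Each region also kept 1 position on all slides, and the effects of region and position cannot be told apart. Under both labels Fos read higher in ventricle than in aorta, by 1.26 (KO-labelled) and 0.61 (WT-labelled). Fosl1 read lower in ventricle than in aorta, by -1.51 and -0.62, Egr2 by -1.34 and -0.75, and Junb by -0.71 and -0.45. So did Ier3, by -0.84 and -0.16, and Jun, by -0.10 and -0.32. The sign of the ventricle-to-aorta difference was the same under both labels in 6 of 10 members, that of ventricle to atrium in 7 and that of atrium to aorta in 4. No share over all genes stands beside these counts, so they cannot tell whether the members differ from other genes. Atf3 was among the members that went opposite ways, at 2.50 from aorta to ventricle under the KO label and -0.84 under the WT label, with 1 sample per region and no test. The median range of the members was 0.90 within the KO-labelled samples (0.35 over all genes), 0.71 within the WT-labelled ones (0.55) and 0.26 in C2C12 (0.20).

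**Figure D3:**
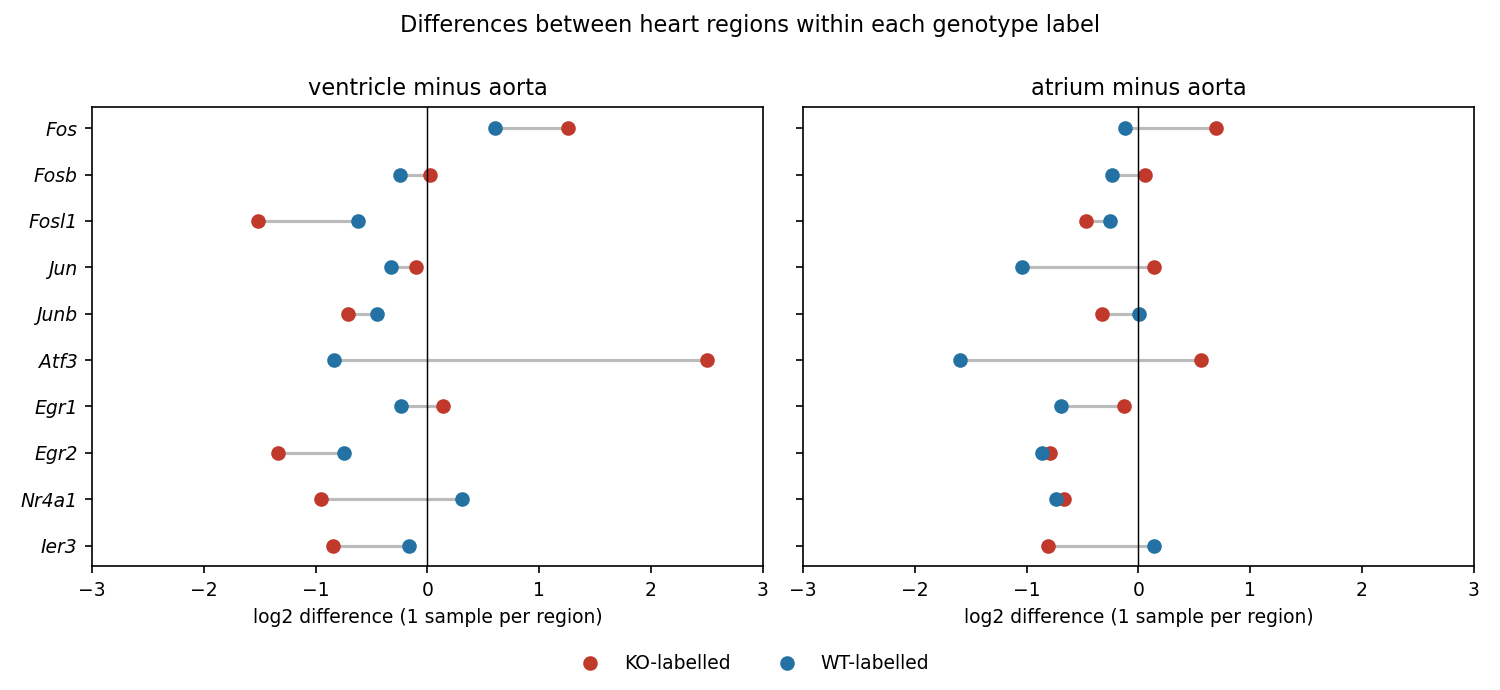
Log2 differences of ventricle minus aorta and of atrium minus aorta (horizontal axes) for each member, KO-labelled in red and WT-labelled in blue, with 1 sample per region. Fos, Fosl1, Jun, Junb, Egr2 and Ier3 have the same sign under both labels from aorta to ventricle, and Fosb, Egr1, Nr4a1 and Atf3 do not. Fosb and Atf3 have opposite signs in both panels.

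The members did not share 1 profile over the 8 samples. Likeness was measured as the root mean square difference between mean-centred log2 values over 8 samples, among the 12137 genes well above background on all 11 arrays, where a small value means a like profile; this restriction was added after the data were seen. For every member, between 103 (Nr4a1) and 2972 (Jun) other genes were closer than its closest fellow member. Each member has few fellows beside the many other genes among the 12137. Such counts therefore cannot tell whether members are more alike than other genes are. Nr4a1 and Ier3 differed by 0.66, Ier3 and Fosl1 by 0.46, and the nearly flat Fosb and Egr1 by 0.20, whereas Egr2 was 1.40 from its closest fellow, Junb. The gene closest to Jun was Fosl2 (Fra-2, another AP-1 subunit), at 0.10. The gene closest to Fosl1 was Trib1, a pseudokinase, at 0.18. Ier3 was closest to Eps8, an adaptor of growth factor receptors, at 0.11, and Egr2 to Rab7b, a small GTPase of endosomes, at 0.40. Atf3 was closest to Stard5, a sterol-binding protein, at 0.46. For the remaining members the closest genes were Slc22a17 (Fos, 0.20), Ino80e (Fosb, 0.05), Zgrf1 (Junb, 0.14), Tubgcp2 (Egr1, 0.07) and AK169992 (Nr4a1, 0.33).

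Other genes of the response were counted from lists drawn up by function. Over all 15002 genes tested between the labels, 29.8% passed limma's adjusted p of 0.05 (13.7% higher and 16.0% lower). With the slide as a block 5.68% did. Each list count is to be read beside these shares. Of 12 other AP-1 and partner genes tested, 2 were higher and 1 lower in KO-labelled samples, with a median of 0.10. Jdp2, a repressor of AP-1, was higher by 1.08 (SE 0.19, limma adjusted p = 0.00834), and Atf4, a factor of the stress response that lies upstream of Atf3, by 1.07 (SE 0.22, adjusted p = 0.0163). Batf3, which pairs with Jun in immune cells, was lower, at -2.50 (adjusted p = 0.0116), and was above background on 4 of 5 KO-labelled arrays. The slide block ended these 3 calls (adjusted p = 0.156, 0.154 and 0.393, with values of 1.19, 1.42 and -1.78).

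Of 32 other immediate early genes tested, 3 were higher and 7 lower, beside 13.7% and 16.0% of all genes. Their median was -0.33, beside -0.06 over all genes. With the slide as a block 1 of the 32 was called (Ptgs2, an inducible prostaglandin synthase), beside 5.68% of all genes. Nr4a2, the close relative of Nr4a1, went the opposite way from it: it read 0.14 to 0.69 in KO-labelled samples, -1.93 to -1.01 in WT-labelled ones and -1.25 to -0.87 in C2C12 (1.90, SE 0.28, limma adjusted p = 0.00453; slide-blocked 2.27, adjusted p = 0.0838). Arc, known from synapses, read -0.94 to 1.24 in KO-labelled samples and -4.96 to -3.61 in WT-labelled ones, where 2 of 3 arrays were above background (adjusted p = 0.00326; slide-blocked 3.28, adjusted p = 0.218). Errfi1, an inhibitor of the EGF receptor, was higher by 1.38 (adjusted p = 0.0169), and Gadd45b, a stress gene, lower, at -1.45 (adjusted p = 0.0117). Their slide-blocked values were 1.35 (adjusted p = 0.277) and -2.08 (adjusted p = 0.103).

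Of 25 upstream factors and kinases tested, 3 were higher and 2 lower, beside 13.7% and 16.0% of all genes, with a median of -0.16. Mapk14, the p38 alpha kinase, read 2.26 to 2.58 in KO-labelled samples, -1.14 to -0.48 in WT-labelled ones and 2.70 to 2.71 in C2C12. Its difference of 3.15 (SE 0.23, limma adjusted p = 0.000276) remained called with the slide as a block (3.14, adjusted p = 0.0156). Ets2, a factor phosphorylated by MAP kinases, was higher by 2.20 (adjusted p = 0.00186; slide-blocked 2.45, adjusted p = 0.0525). Rps6ka5 (MSK1), the kinase that acts on CREB, was lower, at -1.50 (adjusted p = 0.0169; slide-blocked -1.14, adjusted p = 0.415), and Nras was higher by 0.55 (adjusted p = 0.0362; slide-blocked 0.46, adjusted p = 0.498).

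Negative feedback genes, whose products end the early wave, were lower where they passed. Of 16 tested, 0 were higher and 6 lower, beside 13.7% and 16.0% of all genes. Their median was -0.73, beside -0.06 over all genes. Dusp1, the phosphatase that inactivates p38 and JNK, read 0.45 to 0.53 in KO-labelled samples, 1.58 to 1.98 in WT-labelled ones and 1.01 to 1.04 in C2C12 (-1.31, SE 0.15, limma adjusted p = 0.00176). Zfp36l1 and Zfp36l2, which direct decay of AU-rich transcripts, differed by -1.62 (adjusted p = 0.00485) and -0.92 (adjusted p = 0.0431). Spred3, an inhibitor of Ras signalling, was not well above background on any KO-labelled array and was at least 2.44-fold lower there. Such a bound sets the WT-labelled mean against the lowest signals well above background on the KO-labelled arrays. Spred3 passed the filter only through the WT-labelled arrays and could only come out lower. Its limma call (adjusted p = 0.0297), counted in the 6, is therefore no support for a difference. With the slide as a block limma called none of these 16 genes, beside 5.68% of all genes. In that fit 6 were lower at an unadjusted p under 0.05, beside 19.7% of all genes in either direction. The slide-blocked values were -1.35 for Dusp1 (adjusted p = 0.0641), -2.15 for Zfp36l1 (adjusted p = 0.0669) and -1.31 for Zfp36l2 (adjusted p = 0.242). Spred3 had a slide-blocked adjusted p of 0.525.

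Of 13 genes named in textbooks as AP-1 targets, 1 was higher and 6 lower, beside 13.7% and 16.0% of all genes, with a median of -0.62. With the slide as a block 1 target was called (Il6), beside 5.68% of all genes. Mmp3, Mmp10 and Il6 passed the filter through the WT-labelled arrays, where they are high. Mmp3 (stromelysin) read -0.19 to 2.45 in WT-labelled samples and -7.15 to -5.38 in KO-labelled ones, where 1 of 5 arrays was above background (adjusted p = 0.00108; slide-blocked adjusted p = 0.0561). Mmp10 read -2.72 to -1.21 and -5.95 to -5.38 in the same order, and Il6 -2.78 to -2.62 and -5.85 to -4.91, each also above background on 1 of 5 KO-labelled arrays (adjusted p = 0.00293 and 0.000803; slide-blocked adjusted p = 0.151 and 0.0188). Ccnd1 (cyclin D1) was above background throughout and 4.24-fold lower in KO-labelled samples (-2.08, SE 0.37, adjusted p = 0.00909; slide-blocked -2.63, adjusted p = 0.12).

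**Figure D4:**
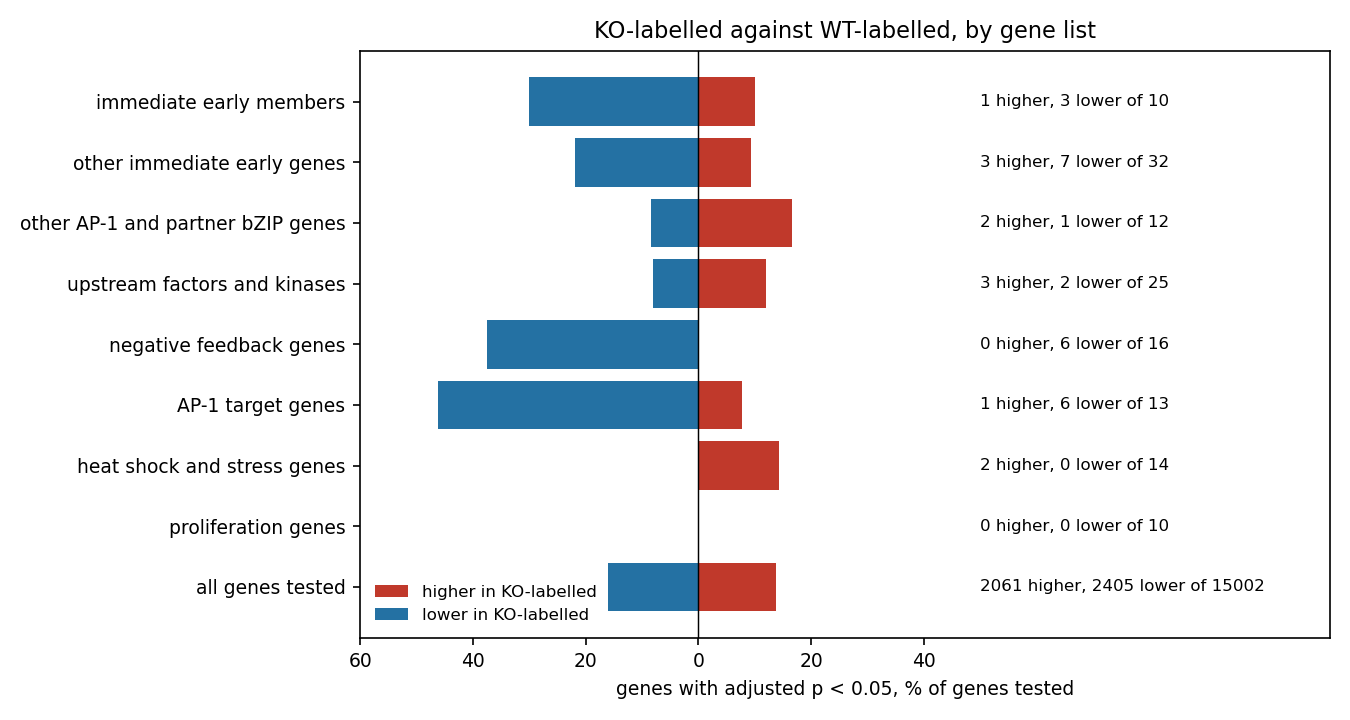
Share of the genes tested in each list (horizontal axis, %) with limma's adjusted p under 0.05, higher (red, right) or lower (blue, left) in KO-labelled than in WT-labelled samples. Negative feedback genes (0 higher, 6 lower of 16) and AP-1 targets (1 higher, 6 lower of 13) hold more lower than higher calls in this fit without the slide (0 and 1 called with the slide as a block), proliferation genes hold no call, and the bottom bar gives all 15002 genes tested. Among the lower calls, Spred3, Mmp3, Mmp10 and Il6 passed the filter through the WT-labelled arrays, where they are high.

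Genes that follow cell stress or growth, and markers of other cells, were read in the same samples. Their counts stand beside 13.7% higher and 16.0% lower over all 15002 genes tested, of which 6311 had an unadjusted p under 0.05. With the slide as a block 5.68% of all genes were called. Of 14 heat shock and stress genes, 2 were higher and 0 lower in KO-labelled samples, and the summed level of the list, relative to the 75th percentile, was 518 to 588 there, 452 to 472 in WT-labelled samples and 460 to 501 in C2C12. The 2 were Hspb1, a small heat shock protein abundant in muscle (3.98 to 4.65 in KO-labelled samples, -6.39 to -4.27 in WT-labelled ones with 1 of 3 arrays above background, and 3.66 to 4.15 in C2C12, adjusted p = 0.00012; slide-blocked adjusted p = 0.00899), and Ddit4, a stress-induced inhibitor of mTORC1 (2.76, SE 0.64, adjusted p = 0.0226; slide-blocked 3.25, adjusted p = 0.237). The probes of Hspa1a, the inducible HSP70, disagreed: the one used here read -2.17 to -0.91 in KO-labelled and -3.28 to -1.33 in WT-labelled samples (adjusted p = 0.478), and the one brightest over all 8 samples, which the slide-blocked fit used, read -0.58 to -0.18 and -4.97 to -3.95 (limma, slide-blocked 4.09, adjusted p = 0.0139). Of 10 proliferation genes, 0 were called by limma in either direction and 0 had an unadjusted p under 0.05, and their sum ran from 149 to 205 in KO-labelled and 170 to 210.0 in WT-labelled samples. Of 10 skeletal muscle markers, 9 were higher in KO-labelled samples (5 called with the slide as a block), and their sum was 52.0 to 230 there, 0.705 to 2.85 in WT-labelled samples and 155 to 390 in C2C12. Among the 9, Cdh15 and Myog were above background on no WT-labelled array and passed the filter only through the KO-labelled ones. Of 6 fibroblast markers tested, 3 were higher and 3 lower (1 called with the slide as a block, Thy1). Thy1 was above background on all WT-labelled arrays and on no KO-labelled one (limma adjusted p = 0.00011). It too passed the filter only through the WT-labelled arrays. Dcn (-4.16, adjusted p = 0.0431) and Pdgfra (-4.11, adjusted p = 0.00102) were also lower. Col3a1 was among the 3 higher ones (2.02, adjusted p = 0.0271). The fibroblast sums overlapped between the labels (245 to 277 and 142 to 247, with 280 to 321 in C2C12), but such sums weigh the brightest genes most. Smooth muscle and pericyte markers were higher in 2 of 6 (sums of 160.3 to 302 and 36.0 to 172, with 325 to 352 in C2C12). Of 8 endothelial markers only 2, Egfl7 and Erg, were tested, and both were lower (0.471 to 0.715 and 1.13 to 3.24, with 0.498 to 0.603 in C2C12). Erg was above background on no KO-labelled array. It passed the filter only through the WT-labelled arrays and could only come out lower. Blood and macrophage markers were lower in 2 of 4 (0.171 to 0.244 and 1.22 to 2.35, with 0.220 to 0.246 in C2C12). Lyz2, among these 2, likewise passed the filter only through the WT-labelled arrays. Of 8 cardiomyocyte markers 5 were tested, of which 4 were higher and 1 lower (19.6 to 41.5 and 2.49 to 6.42). Nkx2-5 was above background on no WT-labelled array and Tnni3 on 1 of 3. Nppa, the lower one, was above background on 1 of 5 KO-labelled arrays. These genes passed the filter through the group where they are high. The cardiomyocyte sum in the C2C12 myoblasts, 23.1 to 49.5, overlapped with the KO-labelled range. With the slide as a block 0 of the smooth muscle and pericyte, 0 of the endothelial, 1 of the blood and macrophage (Lyz2) and 2 of the cardiomyocyte markers (Nkx2-5 and Nppa) were called. The part of these cell type differences in the member values was not tested.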

How the data were processed

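Total RNA was hybridised to Agilent 1-colour (Cy3) arrays, 11 in all. The authors deposited scanner tables of spot intensity, made with version 9.5.3.1 of Agilent Feature Extraction according to the submitters' processing notes. Signals were background-subtracted and detrended but not scaled to each other, per the file headers. A deposited series table holds log2 values equal, within 0.01, to the scanner values for 99.9% of probes, and was used as a check. Control and outlier spots were left out here (39 to 120 marked per array), repeated spots were averaged, and log2 signals were set relative to each array's 75th percentile (962 to 1145). On each array 49.0 to 62.0% of probes passed as well above background. Precision is limited by how few arrays there are.

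Probes well above background on at least 3 fitted arrays were tested, 1 per gene (highest mean), with limma 3.58.1 in R 4.3.3 (lmFit, eBayes; Benjamini-Hochberg over all genes, 0.05). KO-labelled against WT-labelled used the 6 heart samples, and comparisons with C2C12 all 8. The design treated all arrays as separate samples; joining near-identical arrays and the slide block on joined samples were chosen after the data were seen. Tables used Python 3.11.15 and pandas 2.3.3. The fits were tested on simulated data.

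The members, lists and motifs were chosen with earlier results of these data known. All 10 members are named; from each other functional list at most the 4 called genes with the largest difference between the labels are. Probe positions are on mm8, per the file headers; promoters are RefSeq, GRCm38.p6. Alternatives were median scaling, quantile normalization, normexp background (offset 50), other filters, the mean of probes, slide or region in the fit, and leaving out each sample.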

Additional observations from a re-analysis of the deposited data

Results flagged for a closer look

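Atf3 differed between heart regions in opposite directions under the 2 genotype labels. From aorta to ventricle it differed by 2.50 in the KO-labelled samples and by -0.84 in the WT-labelled ones. From aorta to atrium it differed by 0.56 and -1.60. These values rest on 1 sample per region and label, and the difference between the labels was not tested. KO-labelled ventricle, at 1.43, was the highest of the 8 samples; it was read on 2 arrays, which gave 1.39 and 1.47.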

How the results depend on the processing

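Egr2, Nr4a1 and Ier3 kept their direction in all 17 alternatives of each comparison between the labels and of WT-labelled against C2C12 samples, and kept their calls against C2C12 in all 17. Between the labels Jun, at an adjusted p of 0.0518 before any change of setting, was called in 4 of 17, and the Egr2 call was lost with the slide as a block in either form, and the Nr4a1 and Ier3 calls with the slide block on joined samples. Members called between the labels fell from 4 to 2 with the slide block on every array and to 0 on joined samples; between KO-labelled and C2C12 samples 2 were called with every array as its own sample. The cause of these changes was not tested.

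Genes called between the labels (4466) were 2807 with normexp, 2523 and 897 with the slide block on every array and on joined samples, and 2648 to 5875 without 1 sample. Between KO-labelled and C2C12 samples (199) they were 47 with normexp, 100 with no filter, 1629 with every array, 889 and 27 with the slide block, and 13 to 466 without 1 sample. Between WT-labelled and C2C12 samples (4260) they were 2511, 6661 with every array, 2285 with the slide block on joined samples, and 2272 to 5624 without 1 sample. The region test called 123 genes with every array as its own sample.

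Signs turned only in differences that passed no test. Between the labels these were Fos (0.049 with median scaling, 0.085 with normexp, -0.36 to 0.27 without 1 sample), Fosb (0.10 with median scaling, 0.050 with quantile normalization, 0.26 with normexp, -0.050 to 0.073 without 1 sample), Egr1 (-0.0033 with normexp, -0.10 and -0.13 with the slide block, -0.12 to 0.22 without 1 sample), Junb (-0.26 and -0.25 with the slide block) and Atf3 (-0.29 to 0.96 without 1 sample). Against C2C12 they were, for KO-labelled samples, Junb (-0.090 and -0.087 with the slide block, -0.087 to 0.62 without 1 sample), Fosl1 (-0.77 to 0.077), Ier3 (-0.053 to 0.37) and Jun (-0.18 to 0.052), and for WT-labelled samples Junb (0.17 with either slide block, -0.54 to 0.17 without 1 sample). Fosb, whose joined arrays differed by up to 0.24, had the largest such gap of the 10 members. The labels give groups no shared replicate numbers, but each label has 1 sample per heart region: paired by region, with region as a block, 4 members and 3652 genes were called between the labels, Fosl1, Egr2, Nr4a1 and Ier3 at adjusted p = 0.0231, 0.00502, 0.0162 and 0.0167 (limma).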
